A study of Homo sapiens with 12 samples.

Results

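The genes described here are 10 receptor tyrosine kinases: KIT, IGF1R, INSR, FGFR1, FGFR2, FGFR3, FGFR4, EPHA2, DDR1 and TYRO3. They were taken by symbol from a read count matrix of 60623 genes, in which all 10 had exactly 1 row. The cells were NUGC-4, an established line of diffuse gastric cancer, labelled wild type. They were kept in medium with serum and sampled at 24 h in 4 groups of 3 libraries: control, 1 µM IN10018 (an inhibitor of focal adhesion kinase), 1 µM crizotinib (an inhibitor of the receptor kinases ALK, MET and ROS1), and a combination of IN10018 and crizotinib at 1 µM each. The series concerns joint inhibition of FAK and ROS1 in cancers that lack CDH1. No label says that the 3 libraries of a group were separate cultures. The spread behind each p-value may therefore be technical.

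Receptor tyrosine kinases are membrane proteins that act as pairs. When a ligand is bound, the partners phosphorylate each other and recruit adaptors that start the RAS-MAPK, PI3K-AKT and phospholipase C pathways. KIT binds stem cell factor and is best known from mast cells, melanocytes and the interstitial cells of Cajal of the gut. IGF1R and INSR bind insulin-like growth factors and insulin and signal through the IRS adaptors, and the FGF receptors bind fibroblast growth factors with heparan sulfate and signal through FRS2. EPHA2 binds ephrin-A ligands on neighbouring cells, DDR1 binds collagen, and TYRO3, of the TAM family with AXL and MERTK, binds GAS6 and protein S.

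KIT and EPHA2 were lower and DDR1 was higher after crizotinib, alone or with IN10018. IGF1R and TYRO3 passed the test with the combination against control and not with crizotinib alone, and neither differed by the test between the combination and crizotinib. Against control the combination left KIT at 0.534 of its level, EPHA2 at 0.579, IGF1R at 0.747 and TYRO3 at 0.793, and DDR1 at 1.38 times its level. None of the FGF receptors and not INSR passed the test in any comparison. None passed it with IN10018 alone. A difference was called at a Benjamini-Hochberg adjusted p under 0.05 over 17096 tested genes in edgeR's quasi-likelihood test, and 9 of the 10 receptors were tested. FGFR2 had too few reads.

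The stretches upstream of the gene start are shown for KIT and EPHA2, the receptors that fell most, and for IGF1R and INSR, 2 receptors of 1 family that differ widely in level. They are RefSeq windows on GRCh38.p14, written 5′ to 3′ along the gene, and end before the start of the gene in both RefSeq and GENCODE 29. Capitals mark matches, on either strand, to a cyclic AMP response element (TGACGTCA), a GC box (GGGCGG) or a TEAD motif (GGAATG).
KIT, chr4:54657707-54657917, plus strand: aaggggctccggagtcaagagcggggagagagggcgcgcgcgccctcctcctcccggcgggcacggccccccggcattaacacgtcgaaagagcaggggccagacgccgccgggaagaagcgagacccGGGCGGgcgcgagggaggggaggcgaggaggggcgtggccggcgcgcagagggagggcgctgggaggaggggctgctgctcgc
EPHA2, chr1:16156088-16156319, minus strand: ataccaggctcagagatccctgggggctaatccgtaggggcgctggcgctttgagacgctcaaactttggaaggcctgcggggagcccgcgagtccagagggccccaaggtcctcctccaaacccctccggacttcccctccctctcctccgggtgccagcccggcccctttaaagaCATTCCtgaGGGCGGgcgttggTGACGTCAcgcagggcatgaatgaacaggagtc
IGF1R, chr15:98648289-98648538, plus strand: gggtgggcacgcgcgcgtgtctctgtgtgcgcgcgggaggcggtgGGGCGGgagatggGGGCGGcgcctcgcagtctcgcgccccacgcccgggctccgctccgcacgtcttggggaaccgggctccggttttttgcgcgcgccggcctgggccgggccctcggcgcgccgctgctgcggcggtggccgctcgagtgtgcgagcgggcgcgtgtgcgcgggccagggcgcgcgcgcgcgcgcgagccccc
INSR, chr19:7294415-7294664, minus strand: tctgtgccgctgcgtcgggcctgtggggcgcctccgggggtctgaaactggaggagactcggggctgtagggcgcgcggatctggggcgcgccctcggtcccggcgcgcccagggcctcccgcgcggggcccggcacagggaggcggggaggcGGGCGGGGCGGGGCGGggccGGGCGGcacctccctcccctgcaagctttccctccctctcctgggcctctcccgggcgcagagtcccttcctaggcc
The EPHA2 window held 1 cyclic AMP response element, 1 GC box and 1 TEAD match, in a cluster near its downstream end. The cyclic AMP response element stood in 1.65% of the 35116 windows of 250 bases upstream of a start in the RefSeq table, the GC box in 42.6% and the TEAD motif in 11.9%. KIT held 1 GC box, IGF1R 2 and INSR 4, some overlapping, and these 3 windows held none of the other motifs searched: TGANTCA (AP-1, in 6.57% of windows), TATAAA (10.7%), TGTTTAC (FOXO, 2.98%) and GCGTGGGCG (EGR, 0.72%). The windows were rich in G and C, at 76.3% for KIT, 63.8% for EPHA2, 81.2% for IGF1R and 78.4% for INSR. The INSR start of GENCODE lies 380 bases downstream of the window's end. These matches describe the letters and are not binding sites.

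Library totals ran from 13691844 to 20489708 reads. Mitochondrially encoded genes took 11 to 12.7% of reads in control and IN10018 libraries. They took 13.3, 5.21 and 9.46% in crizotinib libraries 1 to 3 and 6.99, 4.28 and 6.62% in combination libraries 1 to 3, and library 2 was the lowest of each of these groups (called both libraries numbered 2 from here on). Crizotinib library 1 had the highest share of all 12, and only the combination libraries all lay below control and IN10018. Of 8 epithelial markers KRT19 was at 0 in all 12 libraries and CDH1 reached only 2.32 to 5.85 CPM, while KRT8 stood at 1120 to 2370 CPM and the list summed to 1976 to 2111 CPM in control, 1676 to 1845 with IN10018, 1795 to 3139 with crizotinib and 2355 to 3583 with the combination. The 6 mast cell markers summed to at most 0.114 CPM, with TPSB2, CPA3 and CMA1 at 0. Of 4 markers of the interstitial cells of Cajal, ANO1 and THBS4 reached at most 0.0748 CPM and ETV1 carried the list, which summed to 48.4 to 57.5 CPM in control and 31.1 to 42.1 CPM with the combination. Fibroblast markers summed to 5075 to 6662 CPM through COL3A1 (5070 to 6650 CPM), with the other 7 at 3.75 CPM or less. Of 8 adipocyte markers, listed because a label mentions adipogenic differentiation, ADIPOQ and LPL were at 0 and FABP4 made up most of the sum. The list summed to 107.8 to 118.8 CPM in control, 101.6 to 109 with IN10018, 106.2 to 140.9 with crizotinib and 128.3 to 151.4 with the combination. Endothelial markers, with KDR at 0, summed to 18.2 to 21.9 CPM in control, 23.6 to 25.3 with IN10018, 23.1 to 27.0 with crizotinib and 34.2 to 41.4 with the combination. Leukocyte markers, with CD3E at 0, summed to 19.1 to 23.7 CPM in control, 17.7 to 20.5 with IN10018, 28.6 to 33.0 with crizotinib and 28.5 to 33.7 with the combination. The epithelial, adipocyte, endothelial and leukocyte sums were thus higher with the combination than in control without overlap. The part of any of these markers in the receptors' values was not tested.

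Levels between genes are compared as CPM (counts scaled to the effective library size) per kilobase of exons. IGF1R stood highest of the 10 in control, at 23.7 ± 0.967 CPM per kb (SD, n = 3), rank 4 among the 58 receptor tyrosine kinases listed, below MET, EGFR and AXL. EPHA2 followed at 21.3 ± 0.463 and DDR1 at 4.72 ± 0.218 CPM per kb. TYRO3 stood at 2.51 ± 0.145, FGFR3 at 1.41 ± 0.0992 and FGFR4 at 1.24 ± 0.174 CPM per kb. FGFR1 stood at 0.812 ± 0.103, KIT at 0.700 ± 0.0579 and INSR at 0.0986 ± 0.0172 CPM per kb. In this order the ranges of FGFR3 and FGFR4 overlapped in all 4 groups and those of FGFR1 and KIT overlapped in control, while with crizotinib the range of KIT overlapped that of INSR. All other neighbours stood apart. MET, a target of crizotinib, was the highest of the 58 in control and fell from 105.8 CPM per kb there to 51.99 with crizotinib and 36.79 with the combination.

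**Figure D1:**
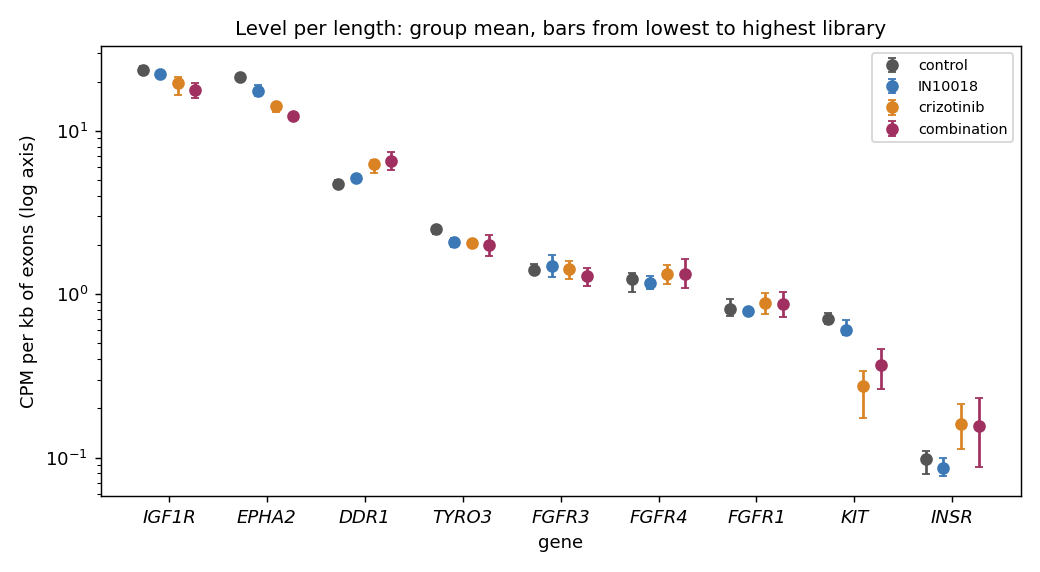
Level of 9 receptors in CPM per kb of exons (log axis), with a point for each group mean and a bar from the lowest to the highest of 3 libraries. IGF1R and EPHA2 lie near 20 CPM per kb, INSR lies near 0.1, and KIT is the receptor whose crizotinib points (0.275 CPM per kb) sit farthest below its control points (0.700 CPM per kb).

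KIT was measured at 4.27, 3.75 and 3.67 CPM in control libraries 1 to 3 and at 3.15, 3.13 and 3.86 CPM with IN10018. It was at 1.90, 0.970 and 1.72 CPM with crizotinib and at 2.14, 1.46 and 2.57 CPM with the combination. All 6 libraries with crizotinib lay below all 6 without it, and control and IN10018 overlapped. The counts were small, from 57 to 69 reads a library in control and from 17 to 42 in the libraries with crizotinib. Against control KIT fell by 1.35 on the log2 scale with crizotinib (SE 0.25, edgeR adjusted p = 0.00357) and by 0.91 with the combination (SE 0.25, adjusted p = 0.00565). Against IN10018 alone the combination stood at -0.70 (SE 0.25, adjusted p = 0.0264). In such bulk libraries fewer KIT-positive cells and less KIT RNA per cell cannot be told apart.

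The lowest KIT value of each crizotinib-treated group was in library 2, which also had the lowest mitochondrial share. Without both of these libraries the change was -1.10 with crizotinib (adjusted p = 0.000668) and -0.71 with the combination (adjusted p = 0.00711), both still called, and -0.51 against IN10018 (adjusted p = 0.0574), no longer called. The call against IN10018 was also lost with library totals (adjusted p = 0.0533) and without IN10018 library 3, combination library 1 or combination library 2 (adjusted p = 0.0805, 0.0562 and 0.0903). With the mitochondrial share as a covariate it was -1.16 with crizotinib (adjusted p = 0.000842), but -0.30 with the combination against control (adjusted p = 0.537) and -0.0092 against IN10018 (adjusted p = 0.994). Because all 3 combination libraries have a lower share than all control and IN10018 libraries, the drugs and the share cannot be told apart in these 2 comparisons.

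EPHA2 was measured at 90.2, 86.4 and 88.6 CPM in control and at 72.0, 67.7 and 79.1 CPM with IN10018. It was at 61.7, 54.3 and 61.4 CPM with crizotinib and at 52.1, 49.7 and 51.7 CPM with the combination. The 4 groups formed 4 steps with no overlap between any of them, control highest and combination lowest. With crizotinib EPHA2 fell by 0.58 on the log2 scale (SE 0.10, edgeR adjusted p = 0.00217), and with the combination by 0.79 (SE 0.10, adjusted p = 6.18e-05). Against IN10018 the combination was at -0.51 (SE 0.10, adjusted p = 0.000779). Both steps that involve adding IN10018 missed the threshold, at -0.28 for IN10018 against control (95% interval -0.48 to -0.07, adjusted p = 0.257) and -0.21 for the combination against crizotinib (interval -0.42 to -0.0038, adjusted p = 0.228).

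These 2 steps of EPHA2 were called in other fits. Without both libraries numbered 2 the adjusted p was 0.0231 for IN10018 against control and 0.0499 for the combination against crizotinib, and with only the 6 control and IN10018 libraries it was 0.00335. On all 12 libraries and without a covariate, neither was called in edgeR, DESeq2 or limma-voom. With a covariate on all 12 libraries edgeR did call them. Both were called with the within-group axis, the first principal component after group means were removed. IN10018 against control was also called with the mitochondrial share. The call against IN10018 was lost with the mitochondrial share as a covariate (EPHA2 at -0.39, adjusted p = 0.072).

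**Figure D2:**
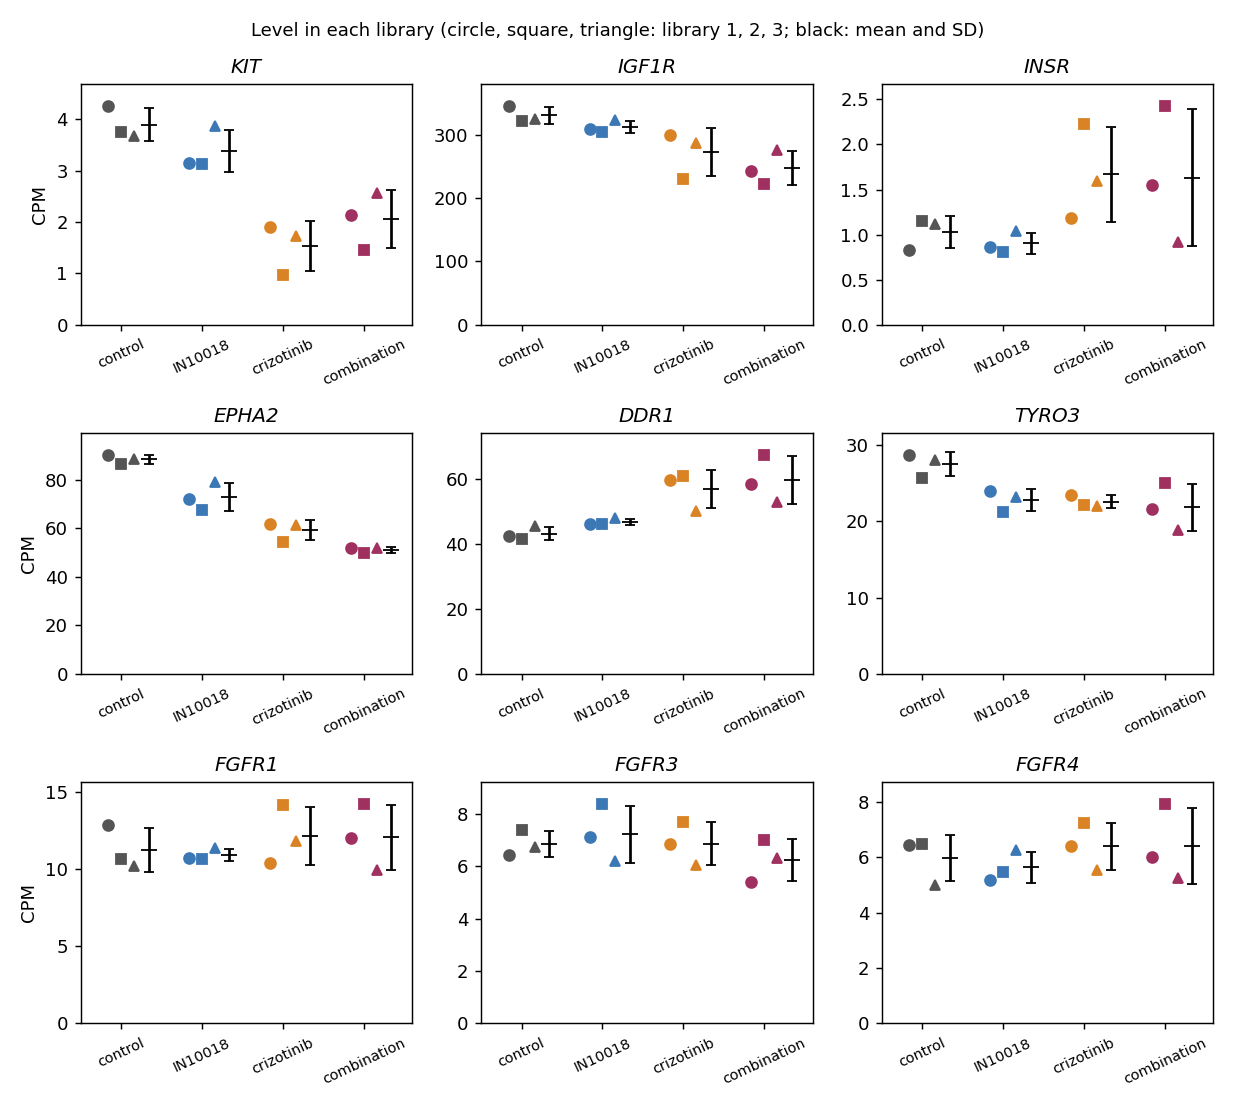
CPM of 9 receptors in each of the 12 libraries by group, with the group mean and SD in black. EPHA2 steps down from 88.4 CPM in control to 72.9, 59.2 and 51.1 CPM, while points of FGFR1, FGFR3 and FGFR4 overlap between all groups.

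IGF1R was measured at 346, 321 and 324 CPM in control and at 308, 304 and 323 CPM with IN10018. It was at 299.8, 229.8 and 287 CPM with crizotinib and at 242, 222 and 275 CPM with the combination. Every crizotinib and combination library lay below every control library, and library 2 was the lowest of its group in both. With the combination the log2 change of IGF1R was -0.42 (SE 0.11, edgeR adjusted p = 0.00534) against control and -0.34 (SE 0.11, adjusted p = 0.0203) against IN10018. Crizotinib alone gave -0.28 (95% interval -0.52 to -0.04, adjusted p = 0.0654). The call against control was lost with library totals as the scale (adjusted p = 0.0599) and with the mitochondrial share as a covariate (-0.16, adjusted p = 0.302), and the call against IN10018 was lost with both and without IN10018 library 3, combination library 1 or combination library 2 (adjusted p = 0.0518, 0.0621 and 0.052).

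INSR, the insulin receptor, was rare, with 11 to 39 reads a library. It was at 0.823, 1.15 and 1.12 CPM in control and at 0.865, 0.808 and 1.03 CPM with IN10018. It was at 1.19, 2.23 and 1.59 CPM with crizotinib and at 1.55, 2.43 and 0.918 CPM with the combination. Each crizotinib library lay above the control libraries, and the combination overlapped control through library 3. The change was 0.68 with crizotinib (95% interval -0.06 to 1.42, edgeR adjusted p = 0.131) and 0.63 with the combination (interval -0.12 to 1.38, adjusted p = 0.131), and neither was called. Besides the low reads, the libraries differed widely, with an SD of 31.5% of the mean with crizotinib and 46.6% with the combination. Library 2 was the highest of its group in both, where KIT and IGF1R were lowest. Without combination library 3 the combination against control was called (0.92, adjusted p = 0.025). The combination against IN10018 stood at 0.85 (adjusted p = 0.0566), and INSR was called there with the replicate number as a block (adjusted p = 0.0396) and without crizotinib library 2 or combination library 3 (adjusted p = 0.0404 and 0.0118). With the mitochondrial share as a covariate the INSR value turned negative, to -0.16 against control (adjusted p = 0.813) and -0.05 against IN10018 (adjusted p = 0.965). Per length, IGF1R exceeded INSR 247 ± 58.7 times in control (SD, n = 3) and 134 ± 56.1 times with crizotinib.

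DDR1 was measured at 42.4, 41.6 and 45.3 CPM in control and at 46.1, 46.0 and 47.8 CPM with IN10018. It was at 59.6, 60.7 and 50.1 CPM with crizotinib and at 58.4, 67.3 and 52.8 CPM with the combination. All libraries with crizotinib lay above all others, and crizotinib and combination overlapped. DDR1 rose by 0.40 on the log2 scale with crizotinib (SE 0.11, edgeR adjusted p = 0.016) and by 0.46 with the combination (SE 0.11, adjusted p = 0.00274), and the combination exceeded IN10018 by 0.35 (SE 0.11, adjusted p = 0.0158). The call for crizotinib was lost without control library 1, 2 or 3 (adjusted p = 0.0553, 0.0558 and 0.063). The call against IN10018 was lost without any 1 of the 3 IN10018 libraries (adjusted p = 0.0553, 0.0538 and 0.0516) and without combination library 2 (0.21, adjusted p = 0.131), and it was also lost with no filter (adjusted p = 0.0634) and with the mitochondrial share as a covariate (0.26, adjusted p = 0.295).

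TYRO3 was measured at 28.7, 25.7 and 28.1 CPM in control and at 24.0, 21.2 and 23.2 CPM with IN10018. It was at 23.5, 22.2 and 22.1 CPM with crizotinib and at 21.6, 25.1 and 18.9 CPM with the combination. Control was above all other libraries, and the 3 treated groups overlapped. The values against control were -0.27 with IN10018 (95% interval -0.52 to -0.02, edgeR adjusted p = 0.407), -0.28 with crizotinib (interval -0.53 to -0.03, adjusted p = 0.0697) and -0.33 with the combination (interval -0.59 to -0.08, adjusted p = 0.0234), the last one called. That call was lost without control library 1, combination library 1 or combination library 3 (adjusted p = 0.0795, 0.0626 and 0.1), and with library totals it stood at -0.15 (adjusted p = 0.251). It was also lost with no filter (adjusted p = 0.0624) and with the mitochondrial share as a covariate (adjusted p = 0.0803). TYRO3 with crizotinib alone was called without both libraries numbered 2 (adjusted p = 0.0433) and with the covariate (adjusted p = 0.0461).

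Among the FGF receptors, FGFR1 was at 12.9, 10.6 and 10.2 CPM in control and at 12.02, 14.2 and 9.98 CPM with the combination. FGFR3 was at 6.44, 7.38 and 6.76 CPM in control and at 5.41, 7.02 and 6.31 CPM with the combination. FGFR4 was at 6.44, 6.47 and 5.00 CPM in control and at 6.01, 7.92 and 5.27 CPM with the combination. Control and combination overlapped for all 3. The combination against control was at 0.11 for FGFR1 (95% interval -0.23 to 0.44, edgeR adjusted p = 0.576), at -0.14 for FGFR3 (interval -0.49 to 0.21, adjusted p = 0.469) and at 0.10 for FGFR4 (interval -0.29 to 0.49, adjusted p = 0.647). The intervals exclude a fall of 1 on the log2 scale, and IN10018 and crizotinib alone gave values between -0.08 and 0.12. By level per length, FGFR3 made up 40.8 ± 3.64% of the 4 FGF receptors in control, FGFR4 35.5 ± 2.52% and FGFR1 23.4 ± 2.30% (SD, n = 3), and their summed level was 3.48 ± 0.254 CPM per kb in control and 3.50 ± 0.558 with the combination.

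FGFR2, the receptor linked to amplification in diffuse gastric cancer, had 4 reads over the 3 control libraries and 3 over the combination libraries. It had 0 of 51457750 reads with IN10018, which allows up to 0.0583 CPM by raw library totals, and 0 of 49089929 with crizotinib, which allows up to 0.0611. These limits cover counting error only, and no fold change was computed. FGFR1 shares 9313 bases with LETM2 on the other strand (313 reads over all libraries), EPHA2 overlaps an antisense gene with 86 reads, and IGF1R overlaps 2 with 92 and 48 reads. The counting's strand setting was not given, so reads could be shared in either direction.

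As counts, 0 of 9 tested receptors were called higher in IN10018 against control, where 0.345% of all tested genes were called, and 0 of 9 lower, against 0.158%. At an unadjusted p under 0.05 there were 0 higher and 2 lower (EPHA2 and TYRO3), and DESeq2 and limma-voom also called 0. This background depended on the fit: of all genes, 59 were called higher and 27 lower, but 1314 and 879 of 15750 with only the groups compared and 629 and 235 of 17236 without both libraries numbered 2, while single libraries left out gave as few as 1 higher (without control library 3 or IN10018 library 2). With crizotinib against control 1 receptor was higher, against 20.0% of all tested genes, and 2 were lower, against 17.6%. With the combination against control 1 was higher, against 33.7%, and 4 were lower, against 29.1%. The combination against IN10018 gave 1 higher, against 29.7%, and 3 lower, against 27.5%. These counts were not tested against the backgrounds, and with only 9 tested receptors they are not read as a result about these receptors. DESeq2 called 4 lower with crizotinib, adding IGF1R and TYRO3.

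The combination against crizotinib gave 0 higher receptors, where edgeR called 0% of all tested genes, and 0 lower, where it called 0.0117%. At an unadjusted p under 0.05 it gave 0 higher and 1 lower, and DESeq2 and limma-voom called 0. This background depended on crizotinib library 2: without it 2614 genes were called higher and 3026 lower of 17457, and without both libraries numbered 2 it was 1877 and 2475 of 17236. With only these 2 groups and a replicate block 1987 were higher and 1803 lower of 16412, and with no filter 772 and 972 of 35679. The interaction of the 2 drugs gave 0 higher, against 0.0585%, and 0 lower, against 0.0117%, with 0 at an unadjusted p under 0.05 and 0 called by DESeq2 and limma-voom. Of the called receptors KIT had the largest interaction, at 0.65 (95% interval -0.12 to 1.41, adjusted p = 0.6). Comparisons that share the control libraries are not independent, and their values stand side by side here without an overlap.

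**Figure D3:**
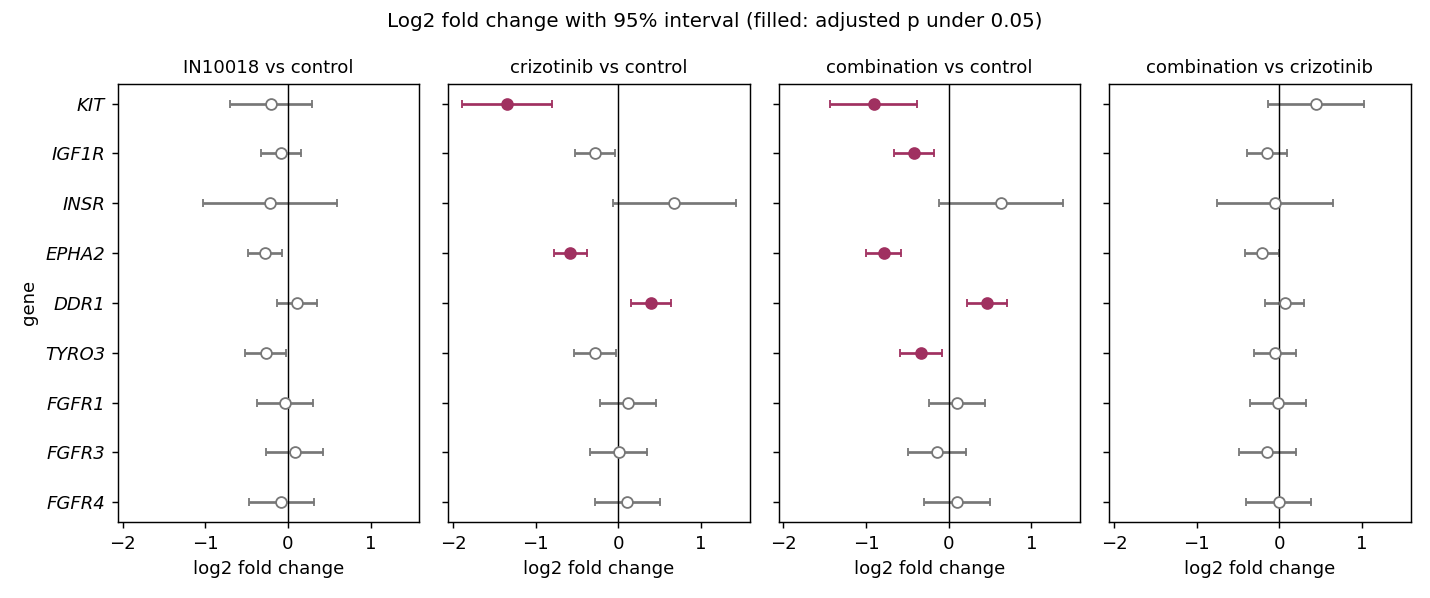
Log2 fold change of 9 receptors with its 95% interval in 4 comparisons, filled where the edgeR adjusted p was under 0.05. KIT has the lowest value with crizotinib (-1.35) and DDR1 the highest called value with the combination (0.46), and no point is filled for IN10018 or for the combination against crizotinib.

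The plot of level against share sets KIT, IGF1R, INSR and EPHA2 beside the mitochondrial share of each library. The part of this share in the results was not tested beyond the covariate and the removal of both libraries numbered 2.

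**Figure D4:**
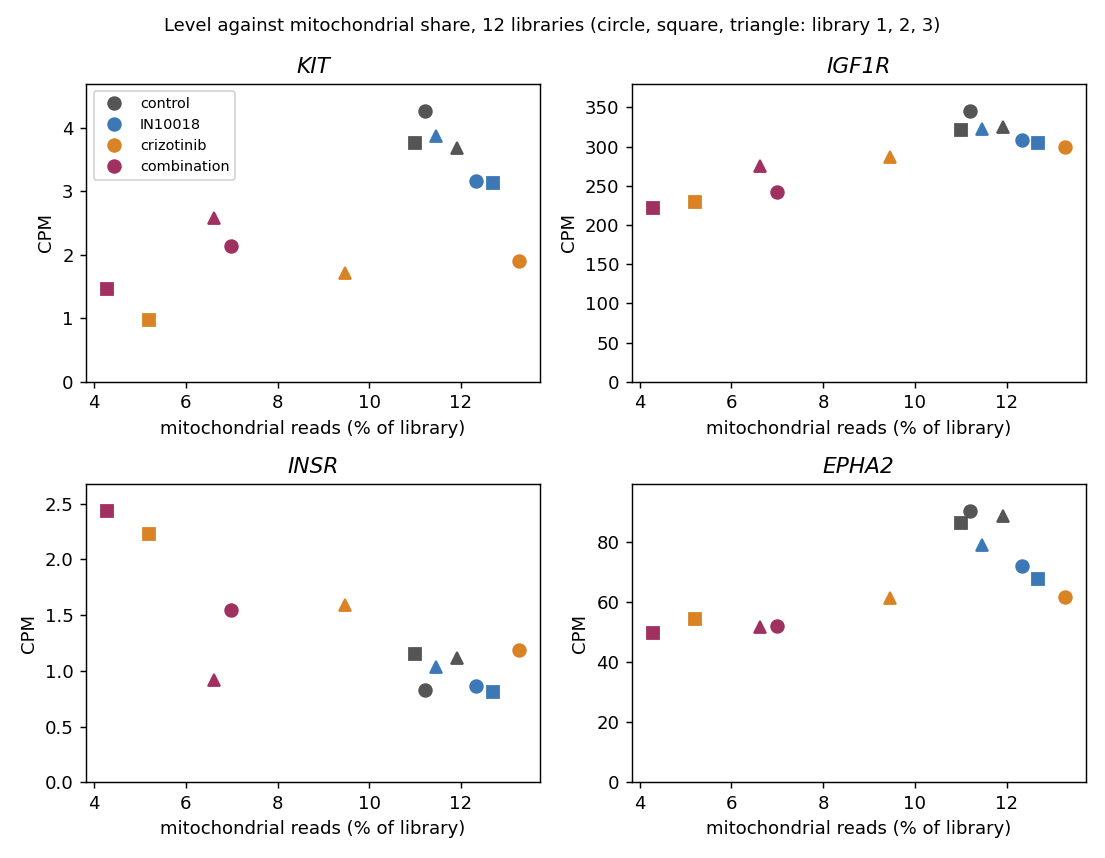
CPM of KIT, IGF1R, INSR and EPHA2 against the percent of reads from mitochondrially encoded genes, 12 libraries. KIT and IGF1R are lowest, and INSR highest, at the left, where crizotinib library 2 (5.21%) and combination library 2 (4.28%) lie, while crizotinib library 1 (13.3%) has KIT at 1.90 and EPHA2 at 61.7 CPM, below all control and IN10018 libraries for both.

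The ligands and partners of these receptors were counted from 9 gene lists, without the 10 receptors themselves. In the combination against control 36 of the 157 tested genes on any list rose and 73 fell, where 33.7% and 29.1% of all tested genes did. With the mitochondrial share as a covariate it was 16 and 44, and with library totals 47 and 62. Calls over all 17096 tested genes moved too, from 5761 higher and 4968 lower. They became 2472 and 2656 with the covariate and 7113 and 3763 with library totals. With crizotinib alone 21 rose and 56 fell, where 20.0% and 17.6% of all tested genes did, and with library totals 31 and 41. None was called in IN10018 against control, in the combination against crizotinib or in the interaction by edgeR, where 3 and 6, 16 and 33, and 6 and 1 genes lay higher and lower at an unadjusted p under 0.05. DESeq2 called 1, 1 and 1 genes there and limma-voom 0. The lists share genes, so their counts overlap. The shares of all tested genes given here are the background for each single list below as well.

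KITLG, which encodes the KIT ligand stem cell factor, fell from 65.2 ± 1.01 CPM in control to 36.2 ± 11.8 with crizotinib and 22.3 ± 6.98 with the combination (SD, n = 3), a change of -0.85 (edgeR adjusted p = 0.0119) and -1.54 (adjusted p = 0.000136). Of 16 tested genes of KIT signalling, 3 rose and 9 fell with crizotinib, and 5 rose and 11 fell with the combination. The list's median change with the combination was -0.66, against 0.10 over all tested genes. CBL, the ubiquitin ligase that removes active receptors, fell by 1.46 with the combination (adjusted p = 0.000147), the phosphatase gene PTPN11 by 0.94 (adjusted p = 7.3e-05) and the kinase gene LYN by 0.73 (adjusted p = 0.000181). With the mitochondrial share as a covariate 1 rose and 8 fell.

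In the insulin and IGF list of 23 tested genes, 6 rose and 10 fell with the combination, and 5 rose and 8 fell with crizotinib. IRS1, the adaptor of IGF1R, fell from 85.0 ± 3.19 CPM in control to 44.2 ± 7.26 with the combination (edgeR log2 change -0.94, adjusted p = 0.000159). IGFBP2, a binding protein that holds IGFs outside the cell, rose from 59.5 ± 2.81 to 115 ± 24.9 CPM (0.95, adjusted p = 0.000229). PAPPA, a protease that frees IGFs from binding proteins, fell by 0.63 (adjusted p = 0.000512), and INPPL1, a phosphatase that removes a phosphate from PI3K's lipid product, rose by 0.84 (adjusted p = 0.000193). The median change was -0.16 and turned to 0.01 with library totals, while the median of all tested genes went from 0.10 to 0.27.

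FGF2, a ligand of the FGF receptors, fell from 448 ± 15.1 CPM in control to 237 ± 79.8 with crizotinib and 149 ± 41.4 with the combination (-1.59, edgeR adjusted p = 0.000106), although the receptors themselves did not pass the test. Of the 12 tested genes among FGF ligands and cofactors, 3 rose and 4 fell with the combination, and 0 rose and 6 fell with crizotinib. The combination's counts were 0 and 3 with the mitochondrial share as a covariate. HS2ST1 and EXT1, which build heparan sulfate, fell by 0.89 (adjusted p = 0.000116) and 0.69 (adjusted p = 0.000479). FGF22 rose by 1.70 (adjusted p = 0.0019) but at only 1.03 ± 0.334 CPM.

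In the list of FGF receptor signalling, feedback and partners 2 of 24 tested genes rose and 12 fell with the combination, and 2 rose and 13 fell with crizotinib. The adaptor gene FRS2 fell from 45.5 ± 2.53 to 14.9 ± 4.36 CPM (-1.61, edgeR adjusted p = 0.000121). The feedback inhibitors of RAS-MAPK signalling SPRED2 (-1.55, adjusted p = 0.000115), SPRED1 (-1.03, adjusted p = 0.000175) and SPRY2 (-0.99, adjusted p = 0.00017) fell too. FLRT1, a membrane partner of FGF receptors, rose from 1.36 ± 0.257 to 6.41 ± 1.43 CPM (2.22, adjusted p = 0.000129). The list's median with the combination was -0.58. With the mitochondrial share as a covariate 2 rose and 9 fell, with a median of -0.29, and with library totals 5 rose and 12 fell.

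Ephrin genes went the other way from EPHA2 in part. EFNA1, which encodes a ligand of EPHA2, rose from 35.9 ± 0.371 to 58.6 ± 6.07 CPM with the combination (0.71, edgeR adjusted p = 0.000129), and EFNA4 from 6.27 ± 0.485 to 13.6 ± 3.46 CPM (1.11, adjusted p = 0.000506). EFNB2, a ligand of the EphB receptors, fell by 0.66 (adjusted p = 0.00102). Of 21 tested genes 7 rose and 7 fell with the combination, where 33.7% and 29.1% of all tested genes did, and 7 were not called. This even count held without both libraries numbered 2, but 4 rose and 1 fell with the mitochondrial share as a covariate, and 10 rose and 5 fell with library totals. Calls over all 17096 tested genes moved in these settings too, from 5761 higher and 4968 lower. They became 2472 and 2656 with the covariate and 7113 and 3763 with library totals.

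Of 21 tested collagens and partners of DDR1, 4 rose and 9 fell with the combination. COL6A2 rose from 120.1 ± 2.36 to 253 ± 64.1 CPM (1.08, edgeR adjusted p = 0.000551), COL4A4 fell by 0.58 (adjusted p = 0.000535), and the adaptor gene SHC1 fell by 1.01 (adjusted p = 0.000299). ADAM10, a sheddase that cuts DDR1, fell by 0.93 (adjusted p = 0.000287). With library totals 5 fell in place of 9.

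GAS6, the ligand of TYRO3, rose from 7.91 ± 1.31 to 18.8 ± 4.52 CPM with the combination (1.24, edgeR adjusted p = 0.000115), and its sister receptor gene MERTK fell from 2.67 ± 0.177 to 1.09 ± 0.466 CPM (-1.27, adjusted p = 0.00106). Of 13 tested genes in this list 3 rose and 8 fell, with a median of -0.44. The mitochondrial covariate gave 4 higher and 4 lower, with a median of -0.17. In the list of receptor turnover (ubiquitin ligases, endosomal sorting, phosphatases and sheddases) 2 of 28 tested genes rose and 21 fell, with a median of -0.59. PTPRF, a receptor phosphatase, fell by 0.57 (adjusted p = 0.000201), and EPS15, an endocytic adaptor, by 0.99 (adjusted p = 0.000167). With the mitochondrial share as a covariate 0 rose and 10 fell.

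**Figure D5:**
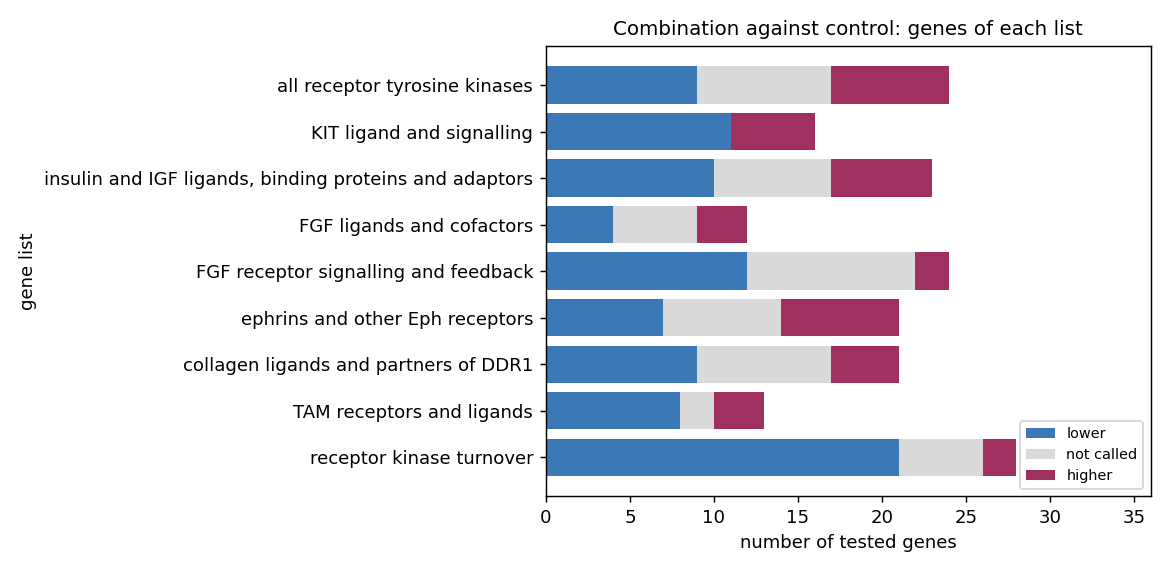
Number of tested genes of each of 9 lists called lower, not called or called higher in the combination against control, the 10 receptors left out. The turnover list has 21 of 28 lower, and the ephrin list has 7 lower and 7 higher, which became 1 lower and 4 higher with the mitochondrial share as a covariate. Of all tested genes 29.1% were called lower and 33.7% higher without the covariate.

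Among all 58 listed receptor tyrosine kinases, 24 others were tested. With the combination 7 of them rose and 9 fell, where 33.7% and 29.1% of all tested genes did. With crizotinib 3 rose and 9 fell, where 20.0% and 17.6% did. ALK fell from 3.99 to 2.01 CPM with the combination (-0.99, edgeR adjusted p = 0.00131), and ROS1 had 0 of 197368907 reads over the 12 libraries, which allows up to 0.0152 CPM by raw totals.

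The genes whose levels followed a receptor most closely over the 12 libraries are given as a description. They were CDK8 for IGF1R (Pearson r 0.993 of log2 CPM), GALNT10 for EPHA2 (0.991), SLC39A13 for DDR1 (0.966), USB1 for INSR (0.951), AC108449.2 for KIT (0.951) and RAVER1 for TYRO3 (0.911), out of 12704 candidates. For FGFR1, FGFR3 and FGFR4 the highest were 0.888, 0.767 and 0.884. All points share the same libraries, treatments and mitochondrial shares.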

How the data were processed

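RNA sequencing read counts of 12 NUGC-4 libraries were used. The deposited counts are whole numbers per gene, without normalization. Per the submitters' processing notes, Trimmomatic, FastQC, HISAT2, featureCounts and DESeq2 were used on hg38/GRCh38. Versions, annotation release and strand setting are not given in the sources used here. Libraries were grouped by treatment label, 3 a group.

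One fit over all 12 libraries was made in edgeR 4.0.16 (R 4.3.3), with TMM scaling, filterByExpr by group (17096 genes), a robust quasi-likelihood test and Benjamini-Hochberg adjustment, for 6 comparisons. SE is the absolute log2 change over the square root of F. CPM uses TMM-scaled totals, and lengths are union exons of GENCODE 29 on GRCh38. Gene positions on GRCh38 are KIT chr4:54657918-54740715, EPHA2 chr1:16124337-16156087, IGF1R chr15:98648539-98964530, INSR chr19:7112255-7294034, DDR1 chr6:30876421-30900156 and TYRO3 chr15:41557675-41583586, all protein coding. DESeq2 1.42.0 and limma-voom (limma 3.58.1) were alternatives. The script was tested on simulated data.

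Members and lists were chosen with earlier results of these data known. Genes named from a list were those with the smallest p in crizotinib or combination against control. Of RefSeq promoter windows, those of 9 members were found. Same-numbered crizotinib and combination libraries had residual correlations of 0.218, 0.624 and 0.275 for libraries 1 to 3. Crizotinib library 1 correlated more closely with a combination library of another number (0.422). For crizotinib libraries 2 and 3 the highest such value was -0.236 and 0.0843. In other group pairs same-numbered libraries did not deviate together throughout, and the labels do not say what numbers mark.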

Additional observations from a re-analysis of the deposited data

How the results depend on the processing

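Of 12 receptor calls, 4 held in all settings run other than the 1.5-fold minimum, namely KIT with crizotinib, EPHA2 with crizotinib and with the combination against control, and DDR1 with the combination against control. Of 42 values not called, 35 stayed so. In IN10018 against control the lower count of 0 became 1 without both libraries numbered 2, with the within-group axis or the mitochondrial share as covariate, and 2 with only the groups compared, with or without a replicate block. In crizotinib against control the lower count of 2 became 4 with DESeq2, DESeq2 size factors, mitochondrially encoded genes removed or the axis covariate, 3 without both libraries numbered 2, with the mitochondrial covariate (TYRO3 added in both) or with the replicate block (IGF1R added), and 1 with a 1.5-fold minimum. The higher count of 1 became 0 with only the groups compared and a replicate block and with the 1.5-fold minimum. In the combination against control the lower count of 4 became 3 with no filter (TYRO3 lost), 2 with library totals or the 1.5-fold minimum and 1 with the mitochondrial share as covariate, and the higher count of 1 became 0 with the 1.5-fold minimum. In the combination against IN10018 the higher count of 1 became 2 with library totals, the axis covariate or the replicate block, and 0 with no filter, the 1.5-fold minimum or the mitochondrial share as covariate. The lower count of 3 became 2 without both libraries numbered 2 (KIT lost), 1 with library totals or the 1.5-fold minimum and 0 with the mitochondrial share as covariate. With this covariate the combination's calls over all genes fell too. Against IN10018 they went from 5079 higher and 4706 lower to 281 and 493 of 17096. Against control they went from 5761 and 4968 to 2472 and 2656. The loss of calls with this covariate was therefore not particular to the receptors. In the combination against crizotinib the lower count of 0 became 1 without both libraries numbered 2 or with the axis covariate. The cause was not tested. Over single libraries left out, counts ranged from 0 to 1 (higher) and 2 to 4 (lower) with crizotinib, from 1 to 2 (higher) and 3 to 4 (lower, TYRO3 lost) with the combination against control, from 0 to 2 (higher) and 1 to 3 (lower) for the combination against IN10018, and from 0 to 1 (lower) against crizotinib.

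Crizotinib libraries 2 and 3 deviated most closely with the combination library of the same number, and crizotinib library 1 did not. With the replicate block the combination against crizotinib kept a receptor count of 0. Its calls over all genes went from 0 higher and 2 lower to 90 and 4, and to 1987 and 1803 with only these 2 groups. The block also called IGF1R with crizotinib (adjusted p = 0.0301) and INSR in the combination against IN10018 (adjusted p = 0.0396). Scaling by library totals moved the median of all genes by 0.12 with crizotinib, 0.18 with the combination against control and 0.11 against IN10018, and no receptor call reversed. The uncalled INSR value turned negative with the mitochondrial covariate (-0.16 with the combination against control). The mitochondrial covariate, the block within 6 libraries and the list settings were chosen after seeing the data. Low reads limit INSR and FGFR2.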
